A study of Mus musculus with 14 samples.

Results

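The genes described are 52 genes of the G2 phase, of mitosis and of cell separation, chosen by symbol from a table of 20377 gene symbols, each taken from its transcript row with the highest mean. All 52 were in the table. They were measured by RNA sequencing of cells sorted from livers of chimeric adult C57BL/6 mice, in which mature hepatocytes carried the red fluorescent protein mTomato. Every animal was fed DDC at 0.1%, a toxicant that injures bile ducts, for 5 to 8 weeks, so no group is free of injury. Levels are RPKM, mapped reads scaled by transcript length and library size, and values of different genes are therefore compared per length.

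Hepatocyte-derived ductal cells were sorted as mTomato-positive cells that carried the duct surface antigen MIC1-1C3, scattered little light to the side and lacked CD11b, CD26, CD31 and CD45 (5 libraries, numbered 219, 220, 225, 248 and 611). Cholangiocyte-derived ductal cells came from the same gate but were mTomato-negative, and so of host origin (5 libraries, numbered 118, 219, 220, 225 and 611). Hepatocytes of the injured livers made up the third group (4 libraries, numbered 118, 225, 248 and 611). Library values below are given in this order of numbers. Nothing in the labels says whether each number is 1 mouse, so p-values measure the spread between libraries.

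Entry into mitosis is driven by Cdk1 bound to a B-type cyclin, and exit by the anaphase-promoting complex, which marks cyclin B and securin for destruction. Transcripts of most of these genes are scarce in resting cells and accumulate in G2. The factors B-Myb and FoxM1 act on such genes with the MuvB complex, at a promoter element known as the cell cycle homology region. This element is often close to CCAAT boxes bound by NF-Y. Adult liver cells seldom divide, whereas ductal cells multiply in livers injured by DDC. In sorted bulk samples, fewer dividing cells and less RNA per dividing cell cannot be told apart.

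The promoters of 4 members are shown as examples of genes with a large difference between the ductal groups, a choice made after the values were seen. In each class the best expressed called member with a usable RefSeq promoter was taken, and of these the 4 with the largest log2 fold change. They are RefSeq promoters in build GRCm38.p6, from 120 bases before the annotated start to 20 after it, and capitals mark CCAAT or its complement ATTGG and the homology region letters TTTGAA. Kif23, a kinesin of the central spindle, lies on the minus strand at chr9:61946780-61946919, and Ccnb2, cyclin B2, on the minus strand at chr9:70421535-70421674. Racgap1, a partner of Kif23 in the central spindle, lies on the minus strand at chr15:99651637-99651776, and Prc1, which bundles microtubules of the central spindle, on the plus strand at chr7:80294331-80294470.
Kif23: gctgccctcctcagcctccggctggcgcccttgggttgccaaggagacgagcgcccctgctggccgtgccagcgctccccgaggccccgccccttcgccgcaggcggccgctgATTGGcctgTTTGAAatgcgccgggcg
Ccnb2: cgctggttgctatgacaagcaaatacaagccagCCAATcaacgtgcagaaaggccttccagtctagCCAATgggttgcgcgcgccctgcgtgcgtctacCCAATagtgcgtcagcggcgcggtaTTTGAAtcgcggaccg
Racgap1: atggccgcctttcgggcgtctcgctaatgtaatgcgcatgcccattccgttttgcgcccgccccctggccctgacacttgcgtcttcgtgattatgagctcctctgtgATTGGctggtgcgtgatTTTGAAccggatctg
Prc1: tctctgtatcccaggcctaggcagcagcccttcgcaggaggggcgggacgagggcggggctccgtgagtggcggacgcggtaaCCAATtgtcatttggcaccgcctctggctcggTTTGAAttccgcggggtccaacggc

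All 4 carry at least 1 CCAAT upstream of letters of the homology region, which begin within 6 bases of the annotated start. Of the 52 members, 43 had a RefSeq promoter, taken from 250 bases before the start to 50 after it. Within these windows, on both strands, CCAAT was present in 32 of 43 members (74.4%), against 37.9% of all 27025 promoters. TTTGAA or TTTAAA was present in 34 members (79.1%), against 27.8% of all promoters. In the last 100 bases of the window, a stretch chosen after the matches were seen, these letters occurred in 29 members (67.4%) and in 8.24% of all promoters. Both CCAAT and such a match in the last 100 bases were found in 27 members (62.8%), against 3.39% of all promoters. The letters are a description of the sequence and not evidence of binding.

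**Figure D1:**
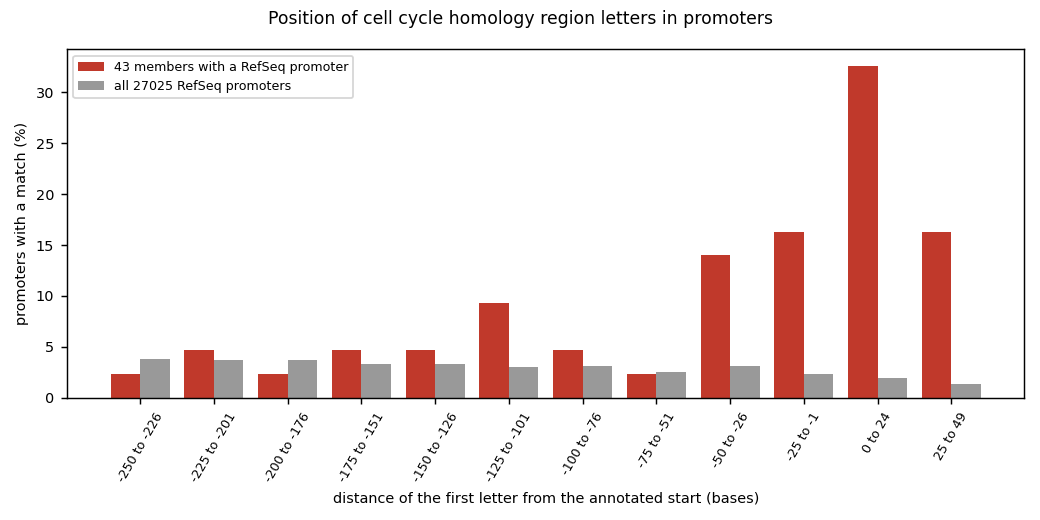
Share of promoters (y axis, percent) in which TTTGAA or TTTAAA begins at each distance from the annotated start (x axis, 25-base steps), for 43 members (red) and all 27025 RefSeq promoters (grey). In members the share is highest, 32.6%, in the step from 0 to 24 bases after the start, where 1.93% of all promoters hold a match.

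The labels of the groups fit their defining markers. All 10 biliary markers were higher in both ductal groups than in hepatocytes, and all 8 hepatocyte markers were lower, by limma's moderated test on log2(RPKM + 1) at an adjusted p under 0.05, the call used throughout. The ductal groups were not alike in these markers. In hepatocyte-derived cells 6 of 10 biliary markers were lower and 6 of 8 hepatocyte markers higher than in cholangiocyte-derived cells. Of all genes 21.0% were called lower and 15.1% higher there. Estimated from the smallest steps of the values, libraries held about 17300000 to 26500000 reads. By that estimate 1 RPKM stood for about 12.8 reads of the shortest member and 193 reads of the longest in the shallowest library, hepatocyte-derived 611. These read numbers are approximate, because the steps were fitted weakly, with a mean cosine of 0.201 in that library and 0.374 in the best.

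Several libraries held transcripts of other cells. The summed level of 14 macrophage markers ran from 56.2 to 218 RPKM in hepatocyte-derived and from 65.6 to 509 RPKM in cholangiocyte-derived ductal libraries. It was 67.2 to 92.2 RPKM in 3 hepatocyte libraries and 1805 RPKM in hepatocyte library 118. The most abundant macrophage marker, Lyz2, had 589 RPKM in that library. The 219 pair held the fewest macrophage transcripts of the ductal pairs, with 11 of 14 macrophage markers under 1 RPKM in the hepatocyte-derived and 10 of 14 in the cholangiocyte-derived library, where Marco was at 0 in both. Of 13 stromal markers Rgs5 was the most abundant, at 953 to 1613 RPKM in hepatocyte-derived and 481 to 844 RPKM in cholangiocyte-derived ductal libraries, and it dominated the list. The other 12 stromal markers summed to 11.1, 32.6, 17.0, 22.5 and 18.6 RPKM in hepatocyte-derived libraries. In cholangiocyte-derived libraries they summed to 440, 88.6, 509, 38.0 and 64.9 RPKM, so that libraries 118 and 220 stood far above the others. Between the ductal groups, 7 of 11 tested stromal markers were called lower in hepatocyte-derived cells and 1 higher. Of 13 tested macrophage markers none was called lower and 1 was called higher. That test pools the spread of all 3 groups, hepatocyte library 118 included. In hepatocyte-derived libraries 219, 220, 225 and 611 the macrophage sums were 56.2, 193, 176 and 174 RPKM. Cholangiocyte-derived libraries of the same numbers had more, at 65.6, 348, 259 and 284 RPKM. Csf1r, which was not called, ran from 19.85 to 24.32 RPKM in hepatocyte-derived and 38.99 to 50.36 RPKM in cholangiocyte-derived libraries.

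The first comparison set ductal cells of hepatocyte origin against ductal cells of biliary origin in the same gate. Of the 52 members, 48 were lower in hepatocyte-derived cells, none was higher and 4 did not pass the test. The 48 include 10 members under 1 RPKM in every hepatocyte-derived library, which passed the filter on low values only through the other groups. Of these, Mybl2 was tested only through its level in cholangiocyte-derived libraries. Without that filter 47 members were called lower, and Smc2 no longer passed. Among all 12638 genes tested, 21.0% were called lower and 15.1% higher. The median log2 fold change of the members was -1.16, against -0.03 over all genes, and 35 members were lower by 2-fold or more. In 40 members every hepatocyte-derived library lay below every cholangiocyte-derived library, as 20.4% of all genes did. The direction held under other scalings: 46 members were called lower after median-ratio rescaling and 41 after quantile normalization, and none higher. Their medians were -1.08 and -0.91. The shares of all genes given above belong to the values as deposited and not to these scalings. Smc2, Cdc25c, Aurka, Spc25, Nusap1 and Ncapd2 no longer passed without cholangiocyte-derived library 220. The first 3 of these also failed without hepatocyte-derived library 225 or 248, Cdc25c without cholangiocyte-derived 118 or hepatocyte-derived 219, and Smc2 without any 1 of 10 libraries. A value in parentheses after a gene is its log2 fold change.

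The stromal markers moved with this result. Within the cholangiocyte-derived group, library 220 had the highest level of 48 members, against 13.2% of all genes. Library 611 had the lowest of 44 members, against 29.9% of all genes. Without cholangiocyte-derived libraries 118, 219 and 220, the ductal libraries with Col1a1 above 10 RPKM, 47 members remained testable, of which 11 were called lower and 46 had a negative fold change, with a median of -0.74. The 11 were Anln, Aurkb, Ccnb2, Cdc25b, Cdk1, Cenpf, Kif23, Mki67, Racgap1, Spc24 and Top2a. In the 225 pair the 12 stromal markers summed to 17.0 RPKM in hepatocyte-derived and 38.0 RPKM in cholangiocyte-derived cells. There all 52 members were lower in the hepatocyte-derived library, against 60.6% of all genes. The median log2 difference was -1.0 for members and -0.09 for all genes. Without libraries 118 and 220 of the cholangiocyte-derived cells and 118 of the hepatocytes, 49 members remained testable. Of these, 38 were lower and none higher, with a median of -0.872. The shares of all genes called belong to the fit on all libraries. In the 219 pair all 52 members were lower in the hepatocyte-derived library as well, against 54.2% of all genes, with a median of -1.21. Its macrophage markers summed to 56.2 RPKM in hepatocyte-derived and 65.6 RPKM in cholangiocyte-derived cells, and its 12 stromal markers to 11.1 RPKM in hepatocyte-derived and 88.6 RPKM in cholangiocyte-derived cells. The other pairs with a shared number had 50 of 52 members lower (220) and 49 of 52 (611), against 53.7% and 51.2% of all genes. The median was smallest in the 611 pair, at -0.44. What part stromal cells or macrophages have in the members' levels was not tested.

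Leaving out Pttg1 and Bub3, which alone made up a large part of the total, the summed level of the other 50 members was 115 ± 21.8 RPKM in hepatocyte-derived ductal cells, 351 ± 132 RPKM in cholangiocyte-derived ductal cells and 225 ± 112 RPKM in hepatocytes (SD, n = 5, 5 and 4). By group mean, 30 members stood highest in cholangiocyte-derived cells and lowest in hepatocyte-derived cells, with hepatocytes between them, an order held by 3.88% of all genes. A further 12 members were highest in hepatocytes and lowest in hepatocyte-derived ductal cells, as 5.40% of all genes were. In 9 members both ductal groups lay above hepatocytes with the cholangiocyte-derived cells on top, the order of 44.9% of all genes, and Bub3 alone was highest in hepatocyte-derived cells. Of the 52 members 10 stayed under 1 RPKM in every hepatocyte-derived library: Ccnb1, Cdc25c, Bub1, Ttk, Kif4, Cenpe, Cenpf, Ndc80, Espl1 and Mybl2.

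**Figure D2:**
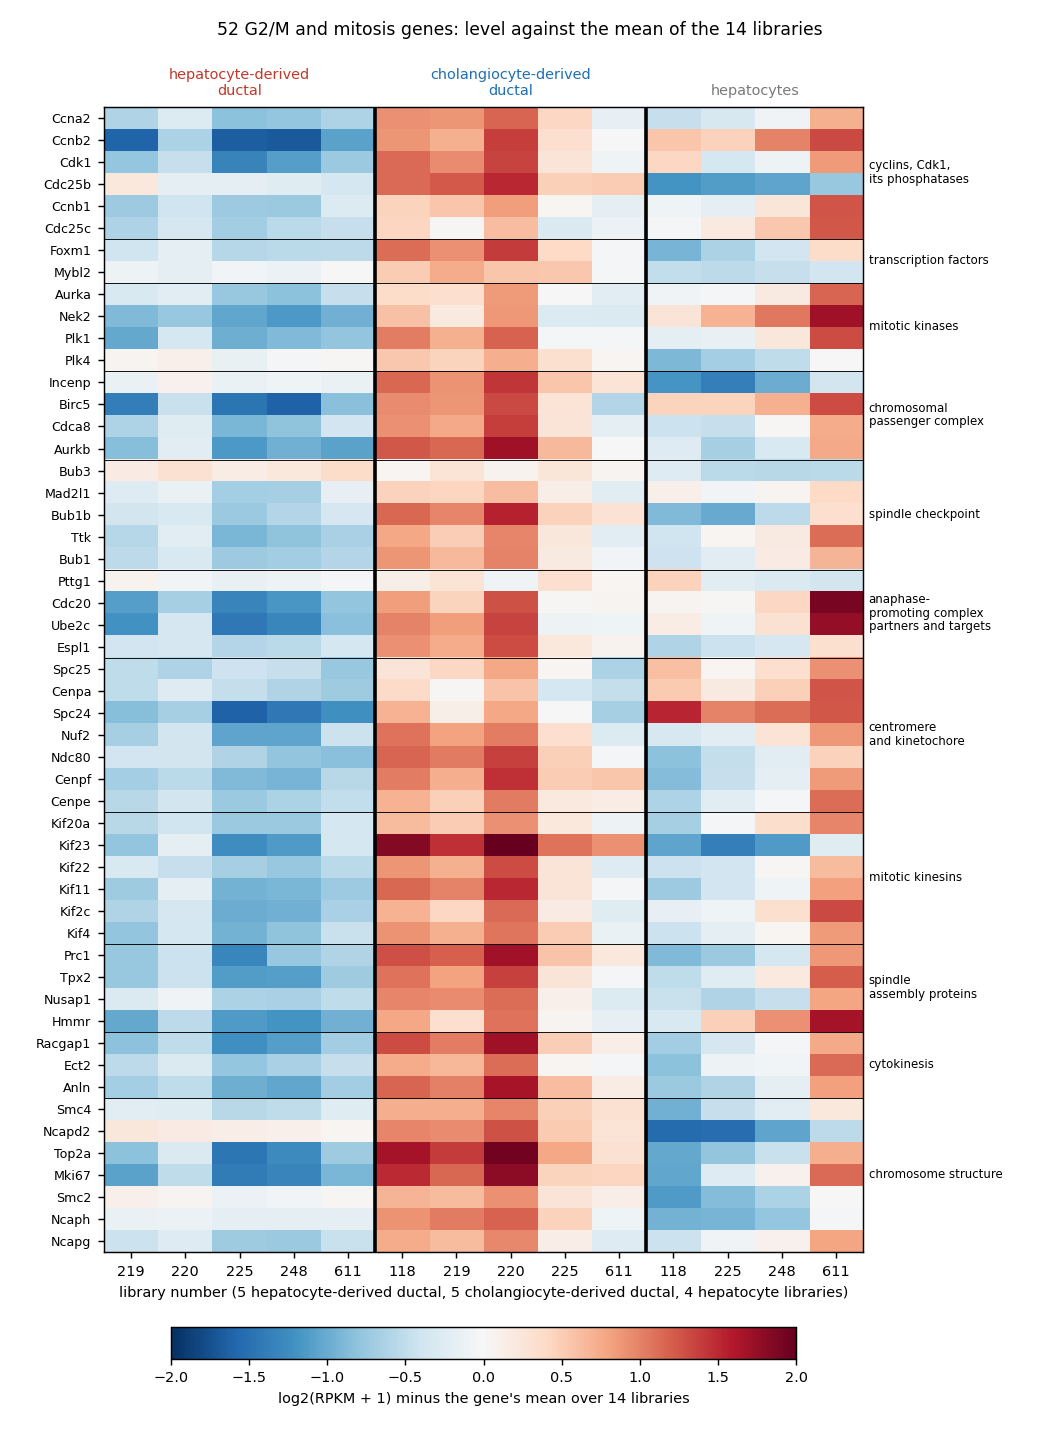
Level of each of the 52 members (rows, grouped by role) in each of the 14 libraries (columns), as log2(RPKM + 1) minus the member's mean over the 14 libraries. Hepatocyte-derived ductal libraries lie below the mean for most members, cholangiocyte-derived library 220 and hepatocyte library 611 stand above it for most, and Bub3 and Pttg1 vary little.

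Mki67, whose product Ki-67 coats mitotic chromosomes and is the usual mark of cycling cells (NM_001081117, mm9 chr7:142881471-142908062), had 1.80, 3.15, 1.23, 1.35 and 2.12 RPKM in hepatocyte-derived ductal cells, 15.5, 12.1, 19.4, 7.05 and 6.92 RPKM in cholangiocyte-derived ductal cells and 1.87, 3.91, 5.26 and 11.9 RPKM in hepatocytes. The ductal groups did not overlap, and hepatocytes spanned the gap between them. Its log2 fold change was -2.11 (SE 0.36, adjusted p = 0.000325, limma) between the ductal groups. Top2a, topoisomerase II alpha, which untangles sister chromatids (NM_011623, mm9 chr11:98854261-98885503), had 3.21, 5.09, 1.75, 2.09 and 3.55 RPKM in hepatocyte-derived cells, 22.7, 18.7, 27.3, 11.7 and 8.16 RPKM in cholangiocyte-derived cells and 2.68, 3.32, 4.46 and 11.4 RPKM in hepatocytes. It was lower in hepatocyte-derived than in cholangiocyte-derived cells, again without overlap, and its log2 fold change of -2.12 had an SE of 0.36 (adjusted p = 0.000301). Without the 3 libraries with Col1a1 above 10 RPKM, the fold changes were -1.48 for Mki67 (adjusted p = 0.0339) and -1.44 for Top2a (adjusted p = 0.0331).

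Among cyclins, Cdk1 and its phosphatases, all 6 members were lower in hepatocyte-derived than in cholangiocyte-derived cells. Ccna2, cyclin A2, which acts from S phase into mitosis, had 5.11, 6.62, 4.24, 4.42 and 4.99 RPKM in hepatocyte-derived cells, 16.3, 16.1, 19.8, 11.3 and 7.21 RPKM in cholangiocyte-derived cells and 5.68, 6.35, 7.83 and 14.1 RPKM in hepatocytes. Its span overlaps Exosc9 on the other strand, and the library kit did not keep the strand. Cdk1, the kinase itself, had 2.05, 2.78, 1.07, 1.43 and 2.14 RPKM in hepatocyte-derived cells, 10.5, 9.04, 12.4, 5.27 and 3.92 RPKM in cholangiocyte-derived cells and 5.97, 3.08, 3.90 and 8.49 RPKM in hepatocytes. Its hepatocyte-derived libraries lay below all 9 others, and the log2 fold change to cholangiocyte-derived cells was -1.61 (SE 0.29, adjusted p = 0.000504). For Ccnb2 the levels were 1.45, 3.79, 1.37, 1.31 and 2.54 RPKM in hepatocyte-derived cells, 12.6, 11.2, 18.2, 8.39 and 6.39 RPKM in cholangiocyte-derived cells and 9.87, 9.19, 13.7 and 17.5 RPKM in hepatocytes. Hepatocyte-derived cells were alone at the low end, and their log2 fold change to cholangiocyte-derived cells was -1.99 (SE 0.27, adjusted p = 4.05e-05). Cyclin B1 was scarce: Ccnb1 had 0.18, 0.49, 0.18, 0.17 and 0.62 RPKM in hepatocyte-derived cells, 1.65, 1.86, 2.48, 1.01 and 0.70 RPKM in cholangiocyte-derived cells and 0.84, 0.70, 1.31 and 3.65 RPKM in hepatocytes. Pseudogenes named after Ccnb1 and Ccnb2 exist in the annotation, so their reads may be shared. Cdc25c, a phosphatase that activates Cdk1, was lower (-0.67).

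Cdc25b, the phosphatase that starts the activation of Cdk1, had another order. It was at 3.22, 2.19, 2.21, 2.08 and 1.83 RPKM in hepatocyte-derived cells, 6.98, 7.51, 9.31, 4.03 and 4.15 RPKM in cholangiocyte-derived cells and 0.59, 0.68, 0.75 and 1.15 RPKM in hepatocytes. The 3 groups did not overlap, with hepatocytes lowest. The log2 fold change was -1.12 between the ductal groups (SE 0.19, adjusted p = 0.000303).

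Both transcription factors were lower in hepatocyte-derived than in cholangiocyte-derived cells. Foxm1, which switches on G2 genes, had 1.5, 1.91, 1.24, 1.28 and 1.30 RPKM in hepatocyte-derived cells, 6.22, 5.21, 7.75, 3.38 and 2.25 RPKM in cholangiocyte-derived cells and 0.74, 1.14, 1.53 and 3.26 RPKM in hepatocytes. Between the ductal groups it differed by -1.21 on the log2 scale (SE 0.27, adjusted p = 0.00231). Mybl2, which encodes B-Myb, was lower in hepatocyte-derived cells (-0.56). It reached 1 RPKM in cholangiocyte-derived libraries only, and so passed the filter on low values through the group where it was high. In the fit without that filter it kept this call.

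Of 4 mitotic kinases, 3 were lower in hepatocyte-derived cells. Aurka, the kinase of centrosomes and spindle poles, had 2.79, 3.01, 1.76, 1.63 and 2.41 RPKM in hepatocyte-derived cells, 5.00, 4.88, 7.38, 3.70 and 2.97 RPKM in cholangiocyte-derived cells and 3.44, 3.59, 4.29 and 9.45 RPKM in hepatocytes, with a log2 fold change of -0.77 between the ductal groups. Nek2, which separates centrosomes (NM_010892, mm9 chr1:193645352-193656928), had 1.09, 1.26, 0.87, 0.73 and 0.98 RPKM in hepatocyte-derived cells, 4.74, 3.38, 6.03, 2.16 and 2.13 RPKM in cholangiocyte-derived cells and 3.60, 5.24, 6.97 and 11.4 RPKM in hepatocytes. Hepatocyte-derived libraries were below all others, with a fold change of -1.17 to cholangiocyte-derived cells. Plk1, which acts from mitotic entry to exit, was lower (-1.37). Plk4, which starts centriole duplication, did not pass (-0.41, adjusted p = 0.0550).

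The chromosomal passenger complex corrects faulty attachments of chromosomes, and all 4 of its members were lower in hepatocyte-derived cells. Birc5, survivin, had 1.26, 3.31, 1.12, 0.91 and 2.30 RPKM in hepatocyte-derived cells, 10.2, 9.83, 13.6, 6.08 and 2.91 RPKM in cholangiocyte-derived cells and 6.95, 7.02, 8.63 and 13.5 RPKM in hepatocytes. Its ductal groups overlapped, because cholangiocyte-derived library 611 lay below hepatocyte-derived library 220. Incenp, the scaffold of the complex, had 5.03, 6.01, 4.99, 5.23 and 5.02 RPKM in hepatocyte-derived cells, 13.6, 11.2, 16.7, 8.74 and 6.98 RPKM in cholangiocyte-derived cells and 1.92, 1.56, 2.31 and 4.11 RPKM in hepatocytes, 3 groups without overlap. The log2 fold changes between the ductal groups were -1.71 for Birc5 and -0.94 for Incenp. The kinase of the complex, Aurkb, was lower (-1.79) and its targeting subunit Cdca8 (-1.22).

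The spindle checkpoint delays anaphase until every chromosome is attached, and 4 of its 5 members were lower in hepatocyte-derived cells. They were Bub1b (-1.35), Bub1 (-1.10), Ttk (-1.09) and Mad2l1 (-0.66). Bub3, which recruits Bub1 to kinetochores, was the exception, at 37.1, 40.9, 36.5, 38.2 and 42.9 RPKM in hepatocyte-derived cells, 34.0, 40.0, 34.5, 39.0 and 34.0 RPKM in cholangiocyte-derived cells and 27.4, 22.3, 22.1 and 22.4 RPKM in hepatocytes. The ductal groups overlapped, differing by 0.11 on the log2 scale (adjusted p = 0.341), and both lay above the hepatocytes.

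Of the partners and targets of the anaphase-promoting complex, its activator Cdc20 was lower in hepatocyte-derived cells (-1.53), its ubiquitin-conjugating enzyme Ube2c (-1.62) and separase, Espl1, (-1.08). Cdc20 overlaps Elovl1 on the other strand. Pttg1, securin, the inhibitor of separase, was the most abundant member, at 44.3, 40.6, 37.9, 39.2 and 41.4 RPKM in hepatocyte-derived cells, 45.7, 51.0, 40.4, 53.6 and 43.6 RPKM in cholangiocyte-derived cells and 58.6, 36.0, 34.4 and 32.4 RPKM in hepatocytes. All 3 groups overlapped, and the ductal groups did not differ beyond their spread (log2 fold change -0.19, adjusted p = 0.305).

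At the centromere and kinetochore, 6 of 7 members were lower in hepatocyte-derived cells. Spc24, a subunit of the Ndc80 complex that grips microtubules (NM_026282, mm9 chr9:21559886-21564730), had 2.16, 2.58, 0.85, 1.11 and 1.43 RPKM in hepatocyte-derived cells, 8.18, 5.15, 8.68, 4.68 and 2.58 RPKM in cholangiocyte-derived cells and 15.4, 10.3, 11.3 and 12.5 RPKM in hepatocytes. The ductal ranges met at 2.58 RPKM, and every hepatocyte library stood above every ductal library. Spc25, its partner, had 4.43, 4.01, 4.80, 4.60 and 3.57 RPKM in hepatocyte-derived cells, 8.25, 9.21, 12.1, 6.94 and 3.99 RPKM in cholangiocyte-derived cells and 10.7, 6.93, 8.68 and 13.5 RPKM in hepatocytes. Between the ductal groups the fold changes were -1.34 for Spc24, -0.72 for Spc25, -1.40 for Ndc80 and -1.31 for Nuf2, the other subunits of that complex. Cenpf, of the outer kinetochore, was lower (-1.57) and the kinetochore motor Cenpe (-1.07). Cenpa, the histone variant of centromeres, did not pass (log2 fold change -0.54, adjusted p = 0.0700).

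All 6 mitotic kinesins were lower in hepatocyte-derived cells. Kif23 (NM_024245, mm9 chr9:61765085-61794606), whose promoter is shown above, had the largest log2 fold change of RPKM + 1 of all members between the ductal groups, with 1.53, 2.82, 0.84, 0.99 and 2.40 RPKM in hepatocyte-derived cells, 14.6, 10.9, 19.0, 8.29 and 7.22 RPKM in cholangiocyte-derived cells and 1.10, 0.69, 0.98 and 2.67 RPKM in hepatocytes. Cholangiocyte-derived libraries were alone at the high end, and hepatocyte-derived ductal cells overlapped hepatocytes. The log2 fold change was -2.24 between the ductal groups (SE 0.28, adjusted p = 2.05e-05), and -1.75 without the 3 libraries with Col1a1 above 10 RPKM (adjusted p = 0.00287). Kif20a, another kinesin of the central spindle, had 4.65, 5.26, 3.96, 3.97 and 5.48 RPKM in hepatocyte-derived cells, 11.8, 10.8, 14.7, 8.56 and 6.70 RPKM in cholangiocyte-derived cells and 4.23, 7.16, 9.58 and 15.3 RPKM in hepatocytes. It overlaps Cdc23 on the other strand. The ductal groups did not overlap for Kif20a, and its fold change was -0.99. Kif11, which pushes spindle poles apart, was lower (-1.47), Kif4, a motor of chromosome arms (-1.28), Kif2c, which shortens microtubules (-1.14) and Kif22, another chromosome motor (-1.12). Pseudogenes named after Kif4 and Kif22 exist in the annotation.

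The 4 spindle assembly proteins were lower in hepatocyte-derived cells. Prc1 had 2.74, 3.71, 1.58, 2.75 and 3.18 RPKM in hepatocyte-derived cells, 14.5, 13.5, 19.4, 8.44 and 6.36 RPKM in cholangiocyte-derived cells and 2.45, 2.81, 3.98 and 10.6 RPKM in hepatocytes, with a fold change of -1.76 between the ductal groups. Hmmr, which acts at spindle poles (NM_013552, mm9 chr11:40514890-40546939), had 0.53, 1.17, 0.43, 0.36 and 0.60 RPKM in hepatocyte-derived cells, 4.36, 2.93, 5.64, 2.25 and 1.79 RPKM in cholangiocyte-derived cells and 1.54, 3.35, 4.86 and 8.94 RPKM in hepatocytes, and its fold change was -1.39. In both genes the ductal groups did not overlap. Tpx2, the activator of Aurora A, was lower (-1.52), and Nusap1, which bundles spindle microtubules (-1.0).

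All 3 members that act in cytokinesis were lower in hepatocyte-derived cells. Racgap1 had 2.12, 2.91, 1.36, 1.58 and 2.40 RPKM in hepatocyte-derived cells, 12.6, 10.3, 16.8, 6.80 and 5.08 RPKM in cholangiocyte-derived cells and 2.43, 3.36, 4.45 and 8.35 RPKM in hepatocytes. Its ductal groups did not overlap, and the log2 fold change was -1.80 (SE 0.30, adjusted p = 0.000253). Anln, anillin of the contractile ring, was lower (-1.70), and Ect2, which activates RhoA at the cleavage site (-1.04).

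Beside Mki67 and Top2a, the 5 condensin genes that compact chromosomes were lower in hepatocyte-derived cells, though by less. Smc4 had 12.6, 12.4, 9.70, 10.1 and 12.4 RPKM in hepatocyte-derived cells, 25.1, 25.2, 29.97, 20.9 and 18.6 RPKM in cholangiocyte-derived cells and 7.09, 10.4, 12.6 and 17.3 RPKM in hepatocytes. Ncapd2 (NM_146171, mm9 chr6:125118025-125141604) had 9.63, 9.26, 8.98, 8.80 and 8.32 RPKM in hepatocyte-derived cells, 16.9, 16.5, 21.0, 12.1 and 9.97 RPKM in cholangiocyte-derived cells and 2.15, 2.17, 3.40 and 5.31 RPKM in hepatocytes. The ductal groups did not overlap in either, and for Ncapd2 both lay above every hepatocyte library. Fold changes between the ductal groups were -0.99 for Smc4, -0.66 for Ncapd2, -0.96 for Ncapg, -0.86 for Ncaph and -0.52 for Smc2. Smc2 was close to the threshold, with an adjusted p of 0.0455, and of 0.0601 in the fit that also held the sample number as a replicate block.

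**Figure D3:**
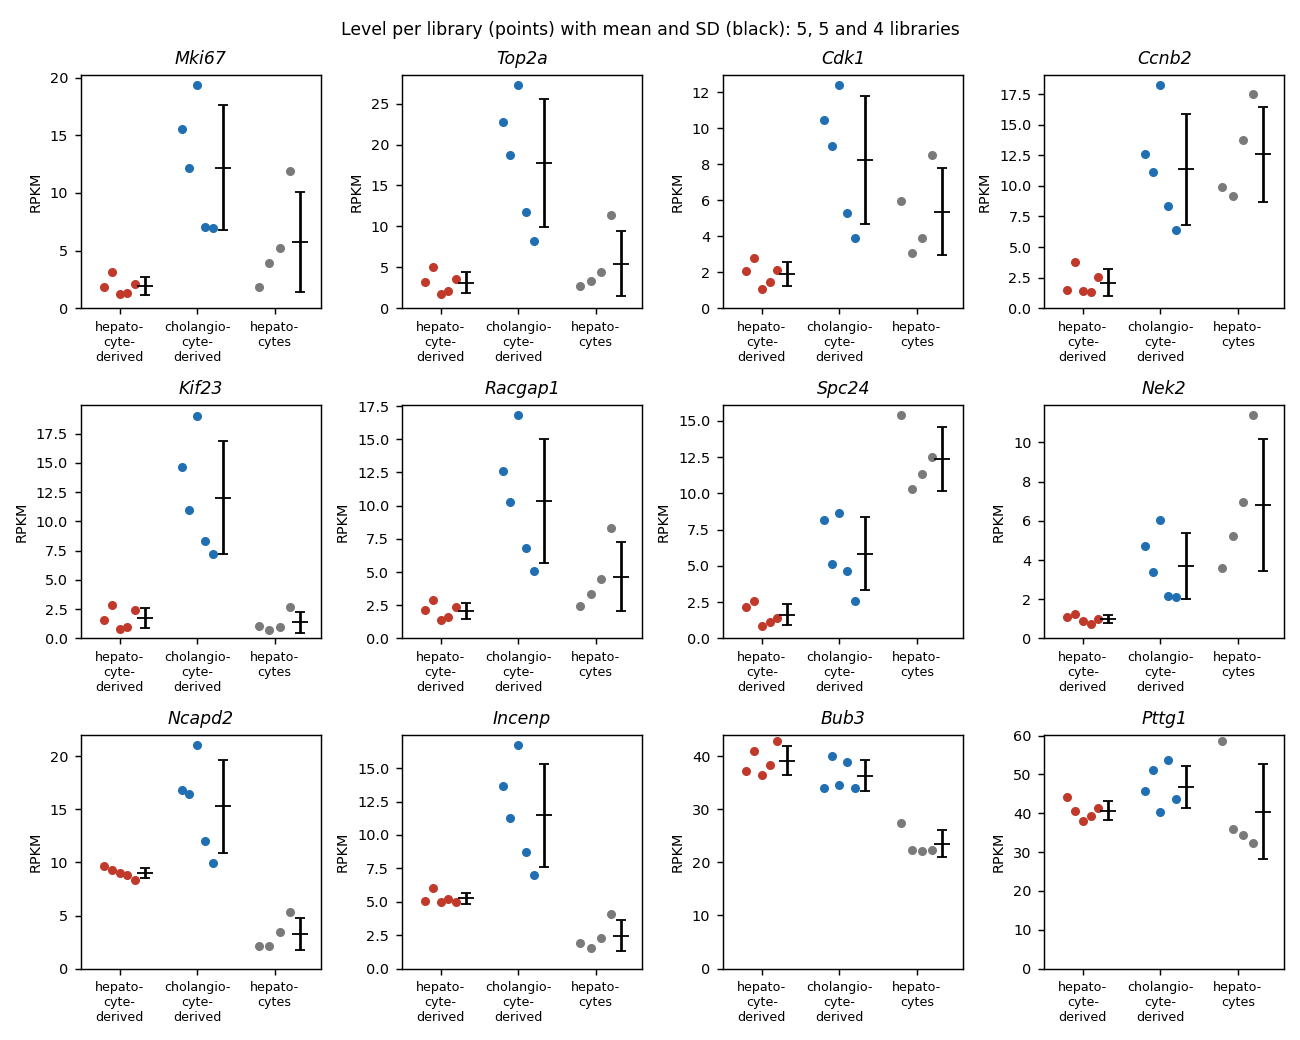
RPKM per library (points, y axes from 0) of 12 members in hepatocyte-derived ductal cells, cholangiocyte-derived ductal cells and hepatocytes (n = 5, 5 and 4), with mean and SD in black. Mki67, Top2a, Kif23 and Racgap1 are lower in every hepatocyte-derived library than in any cholangiocyte-derived library, Spc24 and Nek2 are highest in hepatocytes, Ncapd2 and Incenp are lowest in hepatocytes, and Pttg1 overlaps in all groups.

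The second comparison set cholangiocyte-derived ductal cells against the hepatocytes of the injured livers. In this comparison 67.1% of all genes were called higher and 17.4% lower, and the median of all genes was shifted by 0.76 on the log2 scale. Against that background 24 of 52 members were higher in cholangiocyte-derived cells, 3 were lower and 25 did not pass, and the median of the 52 was 0.57. The 24 include Mybl2, which was tested only through its level in cholangiocyte-derived libraries. Every cholangiocyte-derived library was above every hepatocyte library for 9 members and below for 1, against 60.5% and 14.7% of all genes. The split turned with scaling: 8 members were higher and 12 lower after median-ratio rescaling, and 5 were higher and 22 lower after quantile normalization. Of all genes, too, fewer were called higher and more lower under both scalings. As deposited, 21 of 52 members lay above the median of all genes and 31 below it.

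Kif23, Cdc25b, Ncapd2, Incenp and Top2a had the largest fold changes, at 2.45 (SE 0.30, adjusted p = 2.44e-06), 2.0 (SE 0.20, adjusted p = 3.01e-07), 1.95 (SE 0.21, adjusted p = 7.43e-07), 1.84 (SE 0.22, adjusted p = 2.13e-06) and 1.59 (SE 0.38, adjusted p = 0.00135). As the library values above show, the first 4 did not overlap between the groups, whereas hepatocyte library 611 reached into the range of cholangiocyte-derived libraries for Top2a. Top2a no longer passed after either rescaling, nor without the 3 cholangiocyte-derived libraries with Col1a1 above 10 RPKM (0.91, adjusted p = 0.0797). Under both rescalings Kif23, Cdc25b, Ncapd2 and Incenp kept positive fold changes. The other members called higher were Bub1b (1.40), Ncaph (1.37), Prc1 (1.27), Smc2 (1.18), Foxm1 (1.16), Anln (1.10), Mki67 (1.08), Aurkb (1.06), Ndc80 (1.06), Cenpf (1.02), Racgap1 (1.00), Smc4 (1.00), Plk4 (0.94), Mybl2 (0.93), Espl1 (0.91), Kif11 (0.87), Nusap1 (0.75), Ccna2 (0.68) and Bub3 (0.61). Of these, 12 turned negative after quantile normalization. With the sample number as a replicate block Mki67 (adjusted p = 0.0692), Ccna2 (adjusted p = 0.144), Kif11 (adjusted p = 0.117) and Nusap1 (adjusted p = 0.198) no longer passed. Ccna2, Kif11 and Nusap1 also failed when cholangiocyte-derived library 118, 219 or 220 or hepatocyte library 118 or 225 was left out, Ccna2 and Nusap1 without hepatocyte library 248, Nusap1 without hepatocyte-derived library 611, and Mki67 without hepatocyte library 118.

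The 3 members that were lower in cholangiocyte-derived cells than in hepatocytes were Spc24 (-1.04, SE 0.27, adjusted p = 0.00245), Nek2 (-0.71, adjusted p = 0.0270) and Cenpa (-0.58, adjusted p = 0.0312). Of them, Spc24 alone had groups without overlap. Nek2 and Cenpa no longer passed when cholangiocyte-derived library 225 or 611, or hepatocyte library 611, was left out, which left Spc24 as the 1 member called lower, and Nek2 also failed without hepatocyte library 248. Cdk1, Ccnb1, Ccnb2, Birc5, Aurka, Hmmr, Kif20a, Spc25 and Pttg1 were among the 25 that did not pass.

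The result rested partly on single libraries. Hepatocyte library 611 held the highest hepatocyte level of 49 of 52 members, against 14.6% of all genes. Its level over the highest other hepatocyte library was 1.95-fold by median for members, against 0.788-fold over all genes. In library 611, 26 members were at least 2-fold above every other hepatocyte library. Summed macrophage markers were 67.2 RPKM in library 611, the lowest of the hepatocytes, and 1805 RPKM in library 118. Library 118 held the lowest hepatocyte level of 34 members, against 36.2% of all genes. Without hepatocyte library 611, 35 members were higher in cholangiocyte-derived cells and 1 was lower. Cholangiocyte-derived 118 and 220 and hepatocyte 118 were the libraries richest in markers of other cells. Without them, of 49 testable members 13 were higher and 4 lower, with a median of 0.173. Without the 3 cholangiocyte-derived libraries with Col1a1 above 10 RPKM, of 47 testable members 10 were higher and 5 lower, with a median of 0.105. The shares of all genes called belong to the fit on all libraries.

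The third comparison set hepatocyte-derived ductal cells against hepatocytes, the cells from which they descend by their mark. Of all genes 66.2% were called higher and 14.8% lower, with a median shift of 0.67. Of the 52 members 25 were lower in hepatocyte-derived ductal cells, 7 were higher and 20 did not pass. The median was -0.61, and -0.356 without hepatocyte library 611. The 25 include Ccnb1, Cdc25c, Bub1, Ttk and Kif4, which were under 1 RPKM in every hepatocyte-derived library. The 7 include Mybl2, which was under 1 RPKM in every library of both groups. In a fit on these 2 groups alone, 42 members were testable and 23 of them were lower. Every hepatocyte-derived library was below every hepatocyte library for 17 members and above for 5, against 12.4% and 59.9% of all genes. Rescaling by median ratios gave 40 members lower and 1 higher, and quantile normalization 45 lower and 1 higher. Both rescalings moved all genes as well, with fewer called higher and more called lower than in the values as deposited. The rise in members called lower is therefore not set against the shares above. This comparison shares its hepatocyte libraries with the second and its ductal libraries with the first, so the 3 results are not independent.

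Spc24 had the largest fold change, -2.38 (SE 0.27, adjusted p = 1.32e-06), followed by Ccnb2 at -2.15 (SE 0.29, adjusted p = 6.70e-06), Nek2 at -1.88 (SE 0.28, adjusted p = 1.83e-05), Birc5 at -1.87 (SE 0.35, adjusted p = 0.000177) and Hmmr at -1.66 (SE 0.34, adjusted p = 0.000362). In all 5 every hepatocyte-derived library was below every hepatocyte library. By class, those lower were 4 of 6 cyclins, Cdk1 and phosphatases, 3 of 4 mitotic kinases, 4 of 7 kinetochore genes, 3 of 6 kinesins, 3 of 5 checkpoint genes, 2 of 4 partners or targets of the anaphase-promoting complex, 2 of 4 spindle assembly proteins, 2 of 7 chromosome structure genes, 1 of 4 passenger proteins and 1 of 3 cytokinesis genes. Beyond the 5 named, these were Cdc20 (-1.60), Ube2c (-1.56), Cenpa (-1.12), Plk1 (-1.11), Cdk1 (-1.09), Kif2c (-1.06), Mki67 (-1.02), Spc25 (-1.02), Cdc25c (-1.02), Tpx2 (-0.99), Ccnb1 (-0.87), Ttk (-0.87), Nuf2 (-0.87), Aurka (-0.82), Racgap1 (-0.80), Kif4 (-0.73), Kif20a (-0.72), Bub1 (-0.62), Ncapg (-0.62) and Mad2l1 (-0.50).

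The 7 members that were higher in the ductal cells of hepatocyte origin were Ncapd2 (1.29), Incenp (0.90), Cdc25b (0.88), Bub3 (0.71), Smc2 (0.66), Plk4 (0.52) and Mybl2 (0.37). Ncapd2 had 9.0 ± 0.492 RPKM in hepatocyte-derived cells and 3.26 ± 1.49 RPKM in hepatocytes (SD, n = 5 and 4), and kept a positive fold change under both rescalings. Cdc25b, Incenp, Smc2, Plk4 and Mybl2 turned negative after quantile normalization and Bub3 after median-ratio rescaling. With the sample number as a replicate block, Smc2 (adjusted p = 0.052), Plk4 (adjusted p = 0.0662) and Mybl2 (adjusted p = 0.0775) no longer passed, which left 4 members higher and 32 lower. Without hepatocyte library 611, 16 members were lower and 8 higher. Mki67, Bub1, Mad2l1, Kif20a, Kif4, Nuf2, Racgap1, Tpx2 and Ncapg then no longer passed, while Spc24, Ccnb2, Nek2, Birc5 and Hmmr did. Mki67, Bub1, Kif20a, Racgap1 and Ncapg also failed without hepatocyte library 248, Bub1, Racgap1 and Ncapg without hepatocyte-derived library 225 or 248, Mki67 without hepatocyte-derived library 225, and Ncapg without hepatocyte-derived library 219 or 611. Leaving out cholangiocyte-derived 118 and 220 and hepatocyte 118, 32 of 49 testable members were lower and 7 higher.

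**Figure D4:**
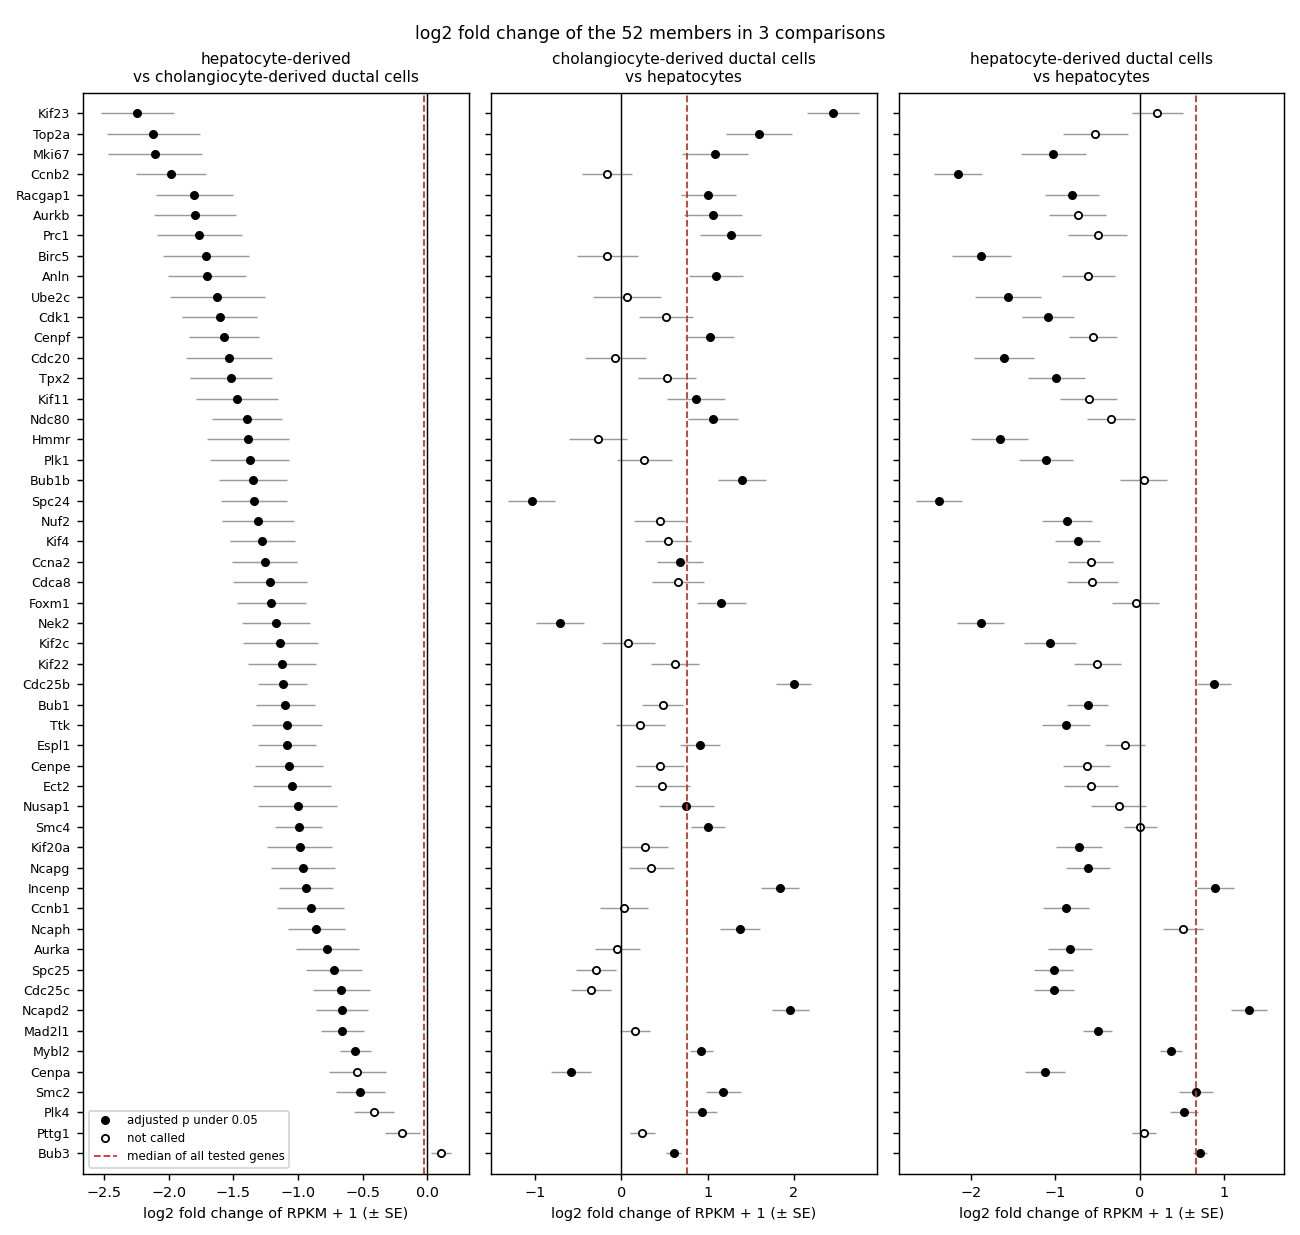
log2 fold change of RPKM + 1 (x axes, with SE) of the 52 members (rows, ordered by the first panel) in the 3 comparisons, filled where the adjusted p was under 0.05, with the median of all tested genes as a dashed line. In the first panel 48 members are called lower, in the second the members scatter around the dashed line at 0.76, and in the third most lie left of the dashed line at 0.67.

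Variation between libraries of 1 group was larger for the members than for other genes. The highest library stood above the lowest by a median of 2.04-fold in hepatocyte-derived cells, 3.09-fold in cholangiocyte-derived cells and 3.60-fold in hepatocytes, against 1.31-fold, 1.31-fold and 1.59-fold in the same groups over all tested genes. The widest were Ttk in hepatocyte-derived cells (4.48-fold), Birc5 in cholangiocyte-derived cells (4.68-fold) and Cenpf in hepatocytes (10.1-fold). Among hepatocyte-derived libraries, 220 held the highest level of 41 members (20.4% of all genes) and 225 the lowest of 33 (19.9% of all genes). Hepatocyte library 118 had the most macrophage and stromal transcripts of the hepatocytes. The 50 members other than Pttg1 and Bub3 summed to 151, 156, 204 and 390 RPKM in hepatocyte libraries 118, 225, 248 and 611. With all 52 members, library 118 (237 RPKM) stood above library 225 (214 RPKM). What other cells contribute to these levels was not tested.

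**Figure D5:**
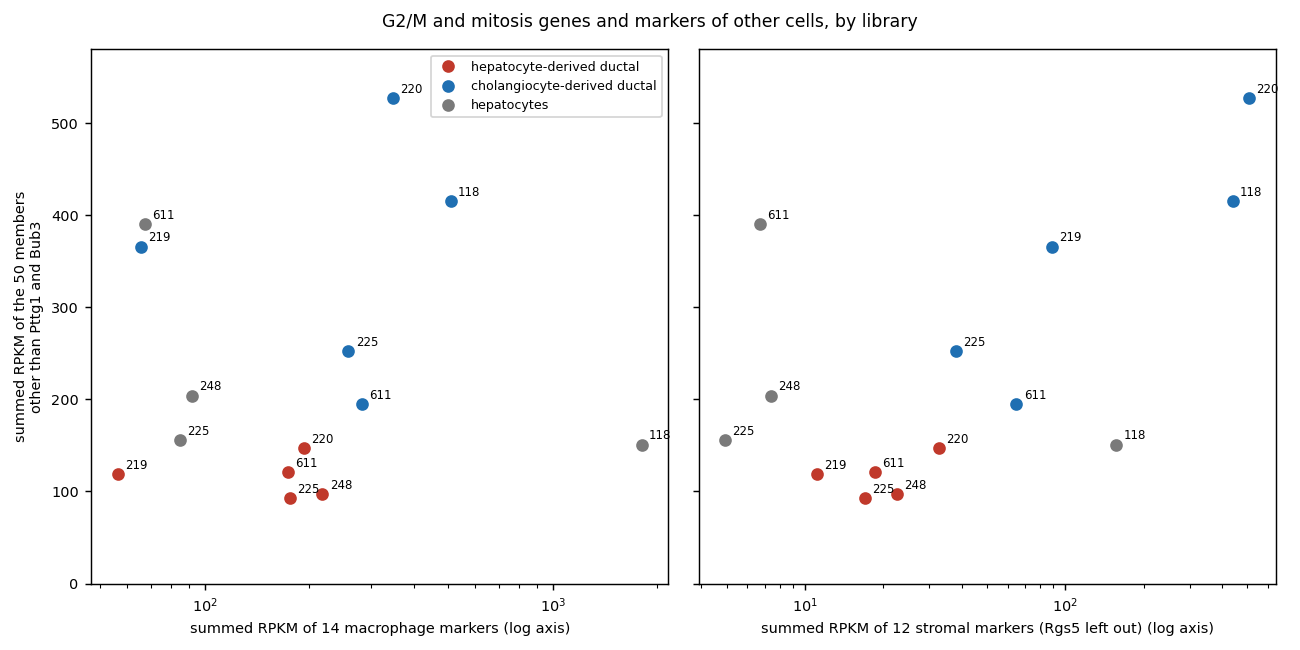
Summed RPKM of the 50 members other than Pttg1 and Bub3 (y axes) against summed RPKM of 14 macrophage markers (left) and of 12 stromal markers without Rgs5 (right, both x axes logarithmic), 1 point per library with its number. The 5 hepatocyte-derived libraries lie between 92.5 and 147 RPKM, below the cholangiocyte-derived libraries at 195 to 527 RPKM, and the cholangiocyte-derived libraries with the most stromal transcripts, 118 and 220, are also the highest.

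Other genes of the cell cycle were read from lists of related genes, whose counts between the ductal groups stand beside 21.0% of all genes called lower and 15.1% called higher. Of 52 tested further mitosis genes, 34 were lower and 1 was higher in hepatocyte-derived than in cholangiocyte-derived cells, with a median of -0.62. Cenpk, of the inner kinetochore, had 1.15 RPKM in hepatocyte-derived and 4.12 RPKM in cholangiocyte-derived cells (log2 fold change -1.24). Cenpm, of the same complex, had 0.71 RPKM in hepatocyte-derived and 3.93 RPKM in cholangiocyte-derived cells (-1.51), and the kinase Pbk 1.06 RPKM in hepatocyte-derived and 7.51 RPKM in cholangiocyte-derived cells (-1.98). Of 36 tested genes of the G1/S transition and DNA replication, 24 were lower and none was higher, with a median of -0.57. Uhrf1, which maintains DNA methylation, had 4.62 RPKM in hepatocyte-derived and 12.8 RPKM in cholangiocyte-derived cells. The helicase factor Cdc45 had 1.75 RPKM in hepatocyte-derived and 4.98 RPKM in cholangiocyte-derived cells, and the replication clamp Pcna 25.7 RPKM in hepatocyte-derived and 45.3 RPKM in cholangiocyte-derived cells.

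The remaining lists stand beside the same 21.0% lower and 15.1% higher of all genes, and the MuvB, DREAM and NF-Y factors and the brakes of G2 were near those shares. Of 15 subunits and regulators of the anaphase-promoting complex, 1 was lower, the activator Fzr1 (-0.20), and 1 was higher, the subunit Anapc4 (0.27). Of 15 cohesin genes and regulators 6 were lower and 1 was higher, and the 3 with the smallest adjusted p were the acetyltransferase Esco2 (-1.40), the cohesin protector Cdca5 (-1.01) and the shugoshin Sgol1 (-0.92). Of 14 factors of the MuvB, DREAM and NF-Y complexes 3 were lower, Rbl1 (-0.90), Tfdp2 (-0.36) and Nfyc (-0.26). Of 18 brakes of G2 and checkpoint genes 4 were lower and 3 higher. They included the checkpoint kinases Chek1 (-0.65) and Chek2 (-0.62), and the inhibitor Cdkn1c, which was higher in hepatocyte-derived cells at 5.89 RPKM, against 3.14 RPKM in cholangiocyte-derived cells (0.75).

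Set against hepatocytes, most of all genes were called higher in both ductal groups. Most genes of each list were too, except the further mitosis genes in hepatocyte-derived cells. In hepatocyte-derived cells 27 of 36 G1/S genes were higher and 4 lower, with a median of 0.80, beside 7 and 25 of the 52 members. Cyclin D2, Ccnd2, had 14.7 RPKM in hepatocyte-derived cells and 0.438 RPKM in hepatocytes, and the helicase subunit Mcm6 38.7 RPKM in hepatocyte-derived cells and 11.1 RPKM in hepatocytes. Further mitosis genes split, with 17 higher and 8 lower of 52 and a median of 0.08, and included the centriole gene Sass6 (2.12 RPKM in hepatocyte-derived cells and 0.63 RPKM in hepatocytes) and Cenpt of the inner kinetochore (12.8 RPKM in hepatocyte-derived cells and 4.06 RPKM in hepatocytes). Higher were also 13 of 15 genes of the anaphase-promoting complex, 11 of 15 of cohesin (1 lower), 11 of 14 of the MuvB, DREAM and NF-Y factors and 15 of 18 brakes (1 lower), among them Fzr1 (1.46), Stag1 (1.24), Nfya (2.43), Trp53 (2.06) and Cdkn1b (1.47). In cholangiocyte-derived cells, 29 of 36 G1/S genes were higher and 1 lower, with Ccnd2 at 35.2 RPKM, and 34 of 52 further mitosis genes were higher and none lower. There 14 of 15 genes of the anaphase-promoting complex, 14 of 15 of cohesin, 12 of 14 MuvB, DREAM and NF-Y factors and 15 of 18 brakes (1 lower) were higher. These counts stand beside a background of 66.2% and 67.1% of all genes called higher.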

How the data were processed

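Per the labels' protocols, 75 to 200 ng of total RNA from each sorted sample was made into libraries with a TruSeq RNA kit that does not keep the strand. Reads were aligned to mouse build mm9 with Bowtie 0.12.7 and handled with CASAVA, per the submitters' processing notes, and how reads were assigned to transcripts is not given in the sources used here. The authors deposited 1 table of RPKM values per transcript for 14 libraries. RPKM holds no counts, so read numbers were estimated from the spacing of low values, and intervals or floors for counting error are not given. A symbol with several rows was represented by its row with the highest mean, which applied to 10 members. Columns numbered 220 belong to samples titled 120 and were matched to their groups only. The members and lists were chosen with earlier results of these data known.

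The 12638 genes that reached 1 RPKM in 4 or more libraries were log2-transformed after adding 1 RPKM and tested by limma 3.58.1 (R 4.3.3), in 1 linear model of 3 groups with a mean-variance trend. P-values were two-sided and Benjamini-Hochberg adjusted over all tested genes, with a threshold of 0.05. All 52 members passed the filter, 10 of them with no hepatocyte-derived library at 1 RPKM and Mybl2 through cholangiocyte-derived libraries only. A fold change on this scale understates the change of low genes. Tested on simulated data with the same groups, the fit called 89 to 91.5% of 2-fold changes and 0.125 to 0.258% of unchanged genes. The changed genes were drawn from all tested genes, with noise independent between genes. Members varied more between libraries of 1 group than other genes did, so these rates are not those of the members. Deviations of same-numbered libraries from their group means correlated across genes by 0.212 to 0.797 in the 4 ductal pairs. In the 3 pairs of cholangiocyte-derived cells and hepatocytes they correlated by 0.133 to 0.512. Libraries of different numbers had a median of -0.059 but reached 0.464, for hepatocyte-derived 220 with cholangiocyte-derived 118. Those shared numbers were taken as pairs, an uncertain inference from the data, and the main model held no term for them. Library values are named for the best expressed member of each class, for Mki67, Top2a, Cdk1 and Ccnb1, and for the 5 called members with the largest fold change per comparison. Of each other list, up to 3 genes with the smallest adjusted p are named. Alternatives comprised other pseudocounts, no filter, rescaling, library weights, summed rows, fits on 2 groups, a block for sample number, and leaving out libraries. Promoters came from RefSeq (GRCm38.p6), a build other than that of the table. Python 3.11.15 was used for the summaries.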

Additional observations from a re-analysis of the deposited data

Results flagged for a closer look

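In 5 of 72 sets of libraries (3 groups, for each of 23 members with printed values and for the summed level of all 52, where chance marks about 1 set in 20) 1 library lay far from the others of its group. Hepatocyte library 611 had 9.45 RPKM of Aurka, the kinase of spindle poles, and hepatocyte library 118 had 27.4 RPKM of Bub3 and 58.6 RPKM of Pttg1, each above the other 3 hepatocyte libraries. Hepatocyte-derived library 219 had 3.22 RPKM of Cdc25b and hepatocyte-derived library 220 had 6.01 RPKM of Incenp, above the other 4 in both cases.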

How the results depend on the processing

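Between the ductal groups no called member changed sign under any alternative, and leaving out 1 library gave 0 members higher and 41 to 50 lower, with 1603 to 2385 of all genes higher and 2299 to 3296 lower. Without the 3 cholangiocyte-derived libraries with Col1a1 above 10 RPKM, an alternative chosen after seeing the data, 11 members and 1398 genes were lower, in a fit with fewer samples. All genes called higher numbered 3069 after quantile normalization and 2987 with library weights. The cause was not tested. Between cholangiocyte-derived cells and hepatocytes, leaving out 1 library gave 20 to 35 members higher and 1 to 3 lower (all genes 8260 to 8789 and 2061 to 2196). Median-ratio rescaling gave 8 and 12 members (5197 and 4734 genes) and quantile normalization 5 and 22 (4891 and 4769). Library weights gave 38 and 1, and the fit on 2 groups 21 and 1. The 3 libraries with transcripts of other cells left out gave 13 and 4 of 49 testable members, and the Col1a1 alternative 10 and 5 of 47. Signs turned after median-ratio rescaling for Ccna2 (-0.068) and Bub3 (-0.19), and after quantile normalization for Ccna2 (-0.19), Aurkb (-0.12), Plk4 (-0.33), Kif11 (-0.31), Cenpf (-0.23), Ndc80 (-0.20), Anln (-0.084), Racgap1 (-0.0063), Espl1 (-0.40), Foxm1 (-0.048), Mybl2 (-0.20) and Nusap1 (-0.42). Between hepatocyte-derived cells and hepatocytes, leaving out 1 library gave 6 to 8 members higher and 16 to 31 lower (all genes 8152 to 8682 and 1750 to 1884). Median-ratio rescaling gave 1 and 40 (4790 and 4549 genes) and quantile normalization 1 and 45 (4596 and 4136), where Bub3 (-0.056) turned under the first and Cdc25b (-0.17), Plk4 (-0.48), Incenp (-0.12), Mybl2 (-0.35) and Smc2 (-0.31) under the second. The replicate block gave 0 and 47 members in the first comparison, 20 and 3 in the second, and 4 and 32 in the third, where pair correlations were 0.021 (248), 0.129 (225) and 0.193 (611), so that not every pair was past 0.1. Beyond the calls named with the results it ended none. Depth limits members near 1 RPKM most.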
